A study of Homo sapiens with 2 samples.

Results

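Aminoacyl-tRNA synthetases are the enzymes that join each amino acid to its transfer RNA. The genes described here are 20 genes for cytosolic synthetases, 16 for mitochondrial ones and 3 for the scaffold proteins AIMP1, AIMP2 and EEF1E1, 39 in all. They were chosen by name and not by their values, although earlier results of these data were known. They were followed in HT-29 cells with and without siRNA against MYC. A gene was measured through probe sets that the platform annotation pairs with it alone. This gave 33 of the 39 genes, out of 19775 genes that had such a probe set. Gene names are the older ones, and newer symbols of the cytosolic enzymes end in 1 (YARS1 for YARS). DARS, MARS, QARS, AIMP2 and EEF1E1 had no probe set listed for them alone, TARS2 shared its only one with a microRNA gene, and these 6 genes were not analysed here.

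HT-29 is an established line from a human colorectal adenocarcinoma. One culture received 20 nM of a non-targeting siRNA pool (control siRNA, although its own treatment label reads None) and the other 20 nM of an siRNA pool against MYC (MYC siRNA). The reverse transfection lasted 24 h and the cells were used 48 h later. Total RNA of each condition was hybridised to 1 array of 54675 probe sets, so no difference below has a replicate check, no test across samples was possible, and values describe these 2 cultures.

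Each synthetase recognises 1 amino acid and its transfer RNAs, and uses ATP to charge them before they reach the ribosome. Cytosolic and mitochondrial protein synthesis mostly draw on separate enzymes, all encoded in the nucleus, while GARS (glycine) and KARS (lysine) supply both compartments from 1 gene each. Several cytosolic enzymes sit in a multisynthetase complex held together by the scaffold proteins. MYC is a transcription factor known to drive ribosome production and protein synthesis, and ATF4, the transcription factor of the amino acid stress response, is known to activate many cytosolic synthetase genes.

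MYC, the targeted gene, had a signal of 1963 in the control siRNA array and 1640 in the MYC siRNA array, 1.20-fold lower (log2 ratio -0.26) by its 1 probe set. Its signal was thus lower where the label says so, by less than the signals of most cytosolic synthetase genes below. A ratio of this size was common. Of the 8917 genes with a signal above 50 in at least 1 array, 1984 had a log2 ratio of -0.25 or lower. Above a signal of 50, the floor used throughout, were 16074 probe sets in the control siRNA array and 16571 in the MYC siRNA array. Of 10 epithelial marker genes 8 were above 50 (EPCAM, KRT8, KRT18, KRT20, CDH1, VIL1, CEACAM5, LGALS4), with EPCAM at 5156 and 4512. Most of these markers moved the other way from most synthetases, 6 of the 8 higher with MYC siRNA (median log2 ratio 0.28). Of all 8917 genes 4770 were higher (median 0.03). EPCAM (-0.19) and KRT18 (-0.03) were lower. At least 1.5-fold higher were CEACAM5 (281 and 613, 2.18-fold) and LGALS4 (1771 and 3056, 1.72-fold), against 10.4% of all genes. The part of these markers in the results below was not tested. The intestinal transcription factors CDX1 (3.56 and 2.87) and CDX2 (1.67 and 0.621) were not above 50. Of 7 markers of fibroblasts, muscle, endothelium and blood cells with a probe set of their own, COL1A1 alone was above 50 (94.7 and 78.9, in 1 of its 5 probe sets).

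All 33 measured synthetase and scaffold genes were above 50 in both arrays. With MYC siRNA 30 of them had a lower signal and 3 a higher one, the cytosolic RARS and the mitochondrial RARS2 and PARS2. Among all 8917 genes above 50 in at least 1 array, 46.5% were lower. The median log2 ratio (MYC siRNA over control) was -0.31 for the 33 genes and 0.03 for all genes. At least 1.5-fold lower were 8 of the 33, against 5.72% of all genes, and at least 1.5-fold higher were 0 of the 33, against 10.4% of all genes. MARS2 alone was at least 2-fold lower, against 0.695% of all genes. Arrays are scaled to one mean signal, so these ratios are relative to the other RNAs of a culture, and less RNA per cell cannot be told apart from fewer cells that hold it.

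**Figure D1:**
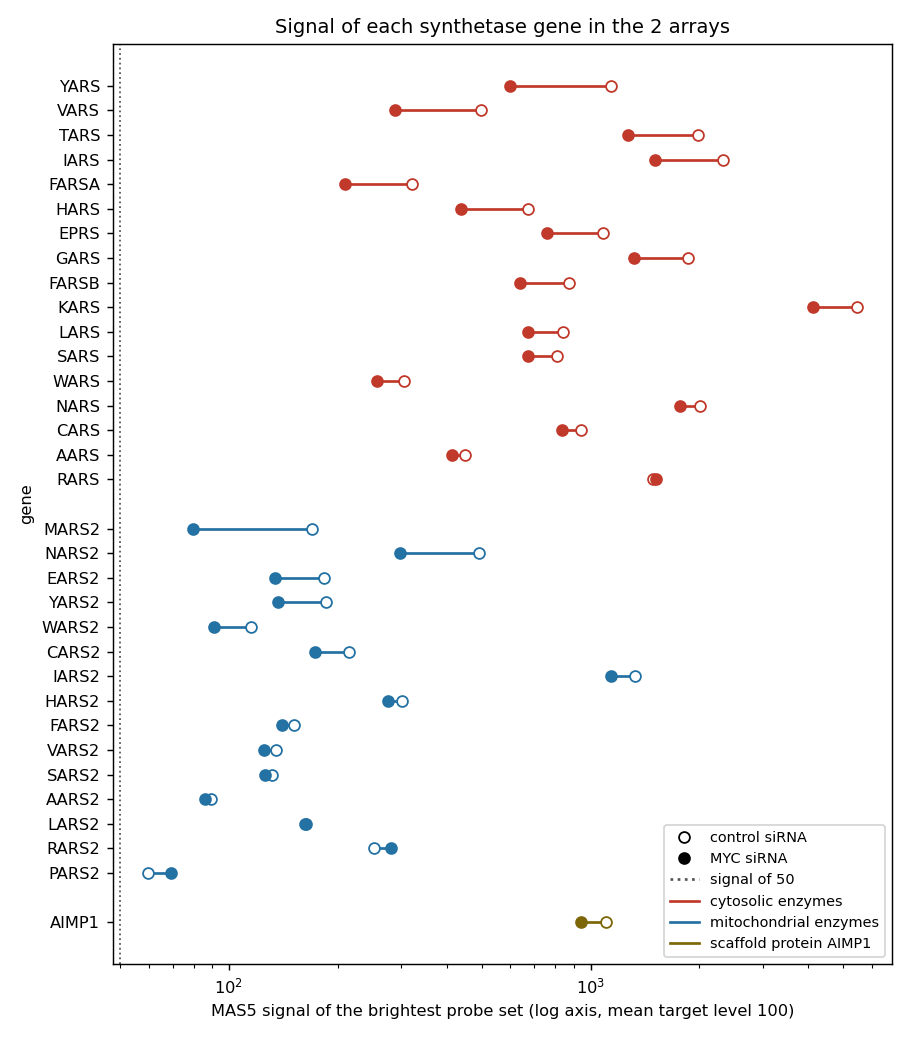
Signal of the brightest probe set of each gene (log axis; MAS5 units, scaled to a mean of 100 per array) in the control siRNA array (open circles) and the MYC siRNA array (filled circles), 1 array each, for 17 cytosolic enzymes (red), 15 mitochondrial enzymes (blue) and AIMP1 (ochre). The filled circle lies left of the open one for 30 of 33 genes, with the longest lines at MARS2 and YARS.

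The cytosolic enzymes were lower almost throughout. Of 17 measured, 16 had a lower signal with MYC siRNA, 6 of them by at least 1.5-fold, and their median log2 ratio was -0.45, a ratio of 0.732. YARS, which charges tyrosine, went from 1142 to 600, 1.90-fold lower (log2 ratio -0.93). Only 88 of the 8917 genes, YARS included, had a ratio as low. VARS (valine) went from 497 to 288, 1.72-fold lower (-0.79), and its dimmer probe set from 100.1 to 69.2 (-0.53). YARS and VARS were the lowest of the cytosolic group, and neither belongs to the multisynthetase complex.

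TARS (threonine) followed with 1976 in the control siRNA array and 1269 in the MYC siRNA array (log2 ratio -0.64). IARS (isoleucine), a member of the complex, had 2317 and 1506 (-0.62). HARS (histidine) had 672 and 440 (-0.61). These 3 genes rest on 1 probe set above 50 each, and all were over 1.5-fold lower. FARSA, the catalytic subunit of phenylalanyl-tRNA synthetase, had 322 and 210 (-0.61), and FARSB, its partner subunit, 870 and 637 (-0.45). Both subunits of this enzyme were therefore lower, FARSA in both of its probe sets (-0.61 and -0.52).

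EPRS, a single protein that charges both glutamate and proline, had signals of 1084 and 760 (log2 ratio -0.51), and its 3 probe sets lay between -0.55 and -0.42. GARS had 1863 and 1321 (-0.50). KARS had 5455 and 4124 (-0.40), with a second probe set at -0.72. GARS and KARS, the genes that serve both compartments, were counted in the cytosolic group beforehand. Their ratios lay inside the mitochondrial range, as did those of all measured cytosolic enzymes. LARS (leucine), which also acts as a leucine sensor for mTORC1, had 840 and 672 (-0.32), but its 4 probe sets did not share a direction, with the dimmest at 0.14.

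The other cytosolic enzymes were closer to no difference. SARS (serine) had 808 and 672 (log2 ratio -0.27), WARS (tryptophan) 305 and 257 (-0.25, with -0.45 in its other probe set), and NARS (asparagine) 2012 and 1771 (-0.18). CARS (cysteine) had 941 and 833 (-0.17) in its brightest probe set and -0.39 and -0.33 in the next ones. AARS (alanine) had 449 and 414 (-0.12), and RARS (arginine), a member of the complex, 1484 and 1522 (0.04). As a yardstick, log2 ratios of different probe sets of the same gene had an SD of 0.167 among bright genes, 0.219 among genes of middle signal and 0.248 among dim ones (3 classes of equal size). Of the 17 cytosolic enzymes 15 were lower by more than that SD, all but AARS and RARS, with CARS just past it. Among all 8917 genes 26.7% were lower by more than their SD. This SD covers the disagreement of probe sets within these 2 arrays, not that between cultures.

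The mitochondrial enzymes were lower in 13 of 15 cases, but most by little, with a median log2 ratio of -0.13 (a ratio of 0.913) and 2 at least 1.5-fold lower. MARS2, which charges the mitochondrial methionine tRNA used for both initiation and elongation, went from 170 to 79.8, 2.13-fold lower (log2 ratio -1.09). That was the lowest ratio of all 33 genes, and 40 of the 8917 genes were as low, MARS2 included. It rests on 1 dim probe set, and setting signals under 100 to 100 brings it to -0.77. NARS2 (asparagine) went from 493 to 297, 1.66-fold lower (-0.73), also by 1 probe set.

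Between these and the rest lay 4 enzymes. EARS2 (glutamate) had signals of 184 and 134 (log2 ratio -0.46), YARS2 (tyrosine) 186 and 137 (-0.44), WARS2 (tryptophan) 115 and 91.0 (-0.34), and CARS2 (cysteine) 215 and 173 (-0.31). These were lower by more than the SD between probe sets, as were MARS2, NARS2 and the bright IARS2 (isoleucine, 1326 and 1137, -0.22), 7 of 15 in all, against the 26.7% of all genes. A second probe set of WARS2 gave -0.35, and the other probe sets of EARS2 gave -0.53 and -0.13.

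The remaining 8 mitochondrial enzymes were within that SD. HARS2 (histidine) had 302 and 276 (log2 ratio -0.13), FARS2 (phenylalanine) 151 and 140.0 (-0.11), VARS2 (valine) 135 and 125 (-0.11), and SARS2 (serine) 132 and 126 (-0.07). AARS2 (alanine) had 89.1 and 85.7 (-0.06) and LARS2 (leucine) 164 and 162 (-0.02, with -0.24 in its other probe set). RARS2 (arginine) was higher, at 251 and 281 (0.16), although its other probe set had 252 and 250.3 (-0.01). PARS2 (proline) had 59.9 and 69.3 (0.21), both close to the floor of 50. Arginine was the single amino acid whose enzyme had a higher signal in both compartments, by less than that SD in each.

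Setting the compartments side by side, the medians differed by -0.32 on the log2 scale (cytosolic minus mitochondrial), and the ranges overlapped, -0.93 to 0.04 for the cytosolic and -1.09 to 0.21 for the mitochondrial enzymes. Of 17 gene pairs for the same amino acid 15 were measured on both sides, covering 14 amino acids. EPRS and FARS2 each enter 2 pairs. The cytosolic gene had the lower ratio in 12 of the 15, and the median difference within pairs was -0.31. Among these 12 the difference was largest for proline (EPRS minus PARS2, -0.72), then valine (VARS minus VARS2, -0.68), phenylalanine (FARSA minus FARS2, -0.50), tyrosine (YARS minus YARS2, -0.49) and histidine (HARS minus HARS2, -0.48). In 3 pairs the mitochondrial gene was lower, for asparagine (NARS minus NARS2, 0.55), cysteine (CARS minus CARS2, 0.14) and tryptophan (WARS minus WARS2, 0.09). Counting just gaps above 0.248, the SD between probe sets of the dimmest genes, left 9 pairs, with the cytosolic gene lower in 8 and the mitochondrial one in the asparagine pair. A gap carries the error of 2 ratios, so this SD is a lenient limit. The leucine pair (0.31) and that of FARSB (0.34) lay nearest above it.

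**Figure D2:**
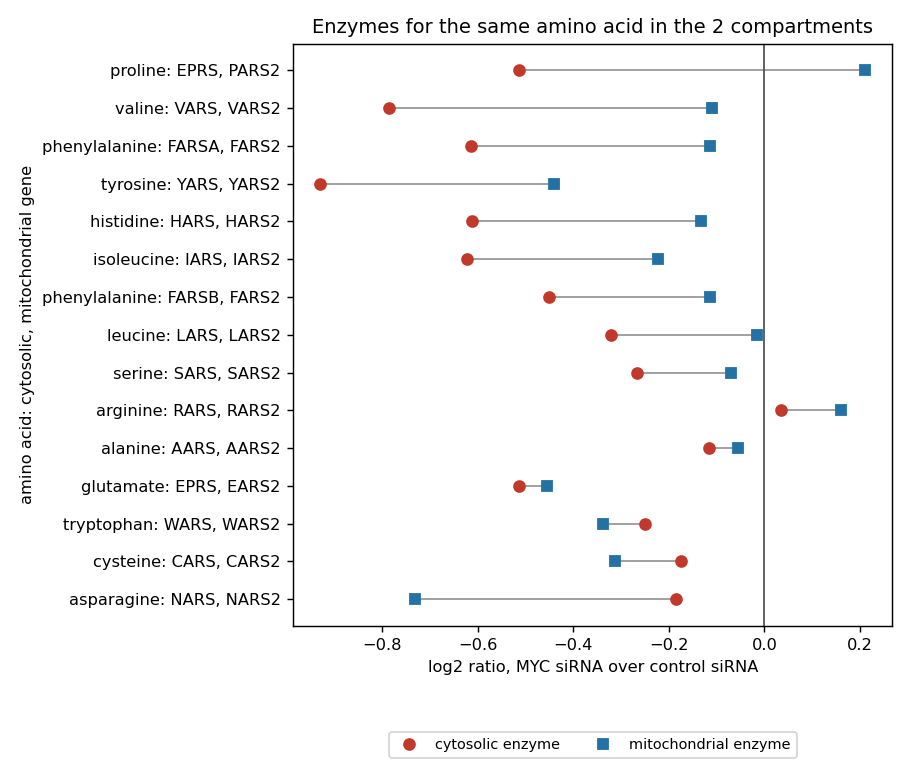
Log2 ratio (MYC siRNA over control) for cytosolic (red circles) and mitochondrial (blue squares) enzymes of the same amino acid, 15 pairs from 1 array per condition, ordered by the difference. The red circle lies left of the blue square in 12 pairs, and the asparagine pair shows the largest gap the other way (0.55).

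Signal strength moved with this contrast. Over all genes, split into 5 signal classes of equal size by mean log2 signal, the median log2 ratio went from 0.15 in the dimmest class through 0.10, 0.04 and -0.01 to -0.10 in the brightest. Of the cytosolic enzymes 11 of 17 were in the brightest class, and of the mitochondrial enzymes 1 of 15. Probe brightness is not a level that can be compared between genes, but it sets which class a gene is read against. Measured from the median of its own class, the median cytosolic enzyme was at -0.35 and the median mitochondrial one at -0.21, with 16 of 17 and 13 of 15 below it. After a loess fit of the ratio on signal the difference of the medians was -0.21 and the cytosolic gene was lower in 10 of 15 pairs. In the brightest class IARS2, at -0.22, stood beside a median of -0.45 for the 11 cytosolic enzymes. The next class went the other way, with NARS2 at -0.73 beside a median of -0.44 for 4 cytosolic enzymes. In the middle class 3 mitochondrial enzymes had a median of -0.13 and 2 cytosolic ones -0.43. No other class held enzymes of both compartments.

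**Figure D3:**
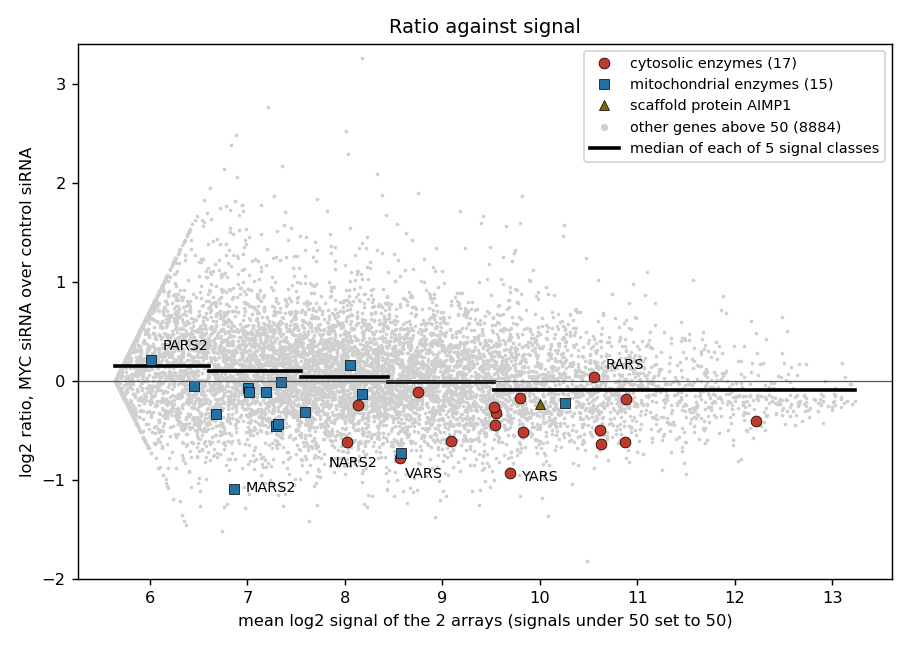
Log2 ratio (MYC siRNA over control) against the mean log2 signal of the 2 arrays for all 8917 genes above 50 (grey), with the median of each of 5 signal classes (black lines), the 17 cytosolic enzymes (red), the 15 mitochondrial enzymes (blue) and AIMP1 (ochre triangle). The black lines step down from 0.15 to -0.10, and 29 of the 32 enzymes lie below the line of their class.

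The kind of probe set moved with it too. Probe sets whose identifier ends in _s_at, _x_at or _a_at can bind several transcripts. The brightest probe set was of this kind in 8 of 17 cytosolic enzymes (EPRS, FARSA, FARSB, GARS, IARS, LARS, VARS, YARS), with a median log2 ratio of -0.56, and in 0 of 15 mitochondrial enzymes. The 9 cytosolic enzymes with another kind had a median of -0.25. Among the other genes of the brightest signal class the medians were -0.13 for this kind and -0.06 for the rest. With such probe sets left out, 10 cytosolic enzymes could be measured, 9 of them lower and 2 at least 1.5-fold lower (TARS and HARS), with a median of -0.26 against the unchanged mitochondrial -0.13, a difference of -0.13. The cytosolic gene was then lower in 5 of 8 pairs. The part of signal strength and of the kind of probe set in the contrast was not tested.

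Of the 70 probe sets that name 1 of these genes, 53 were above 50, 48 of them lower and 5 higher. More than 1 such probe set was available for 14 genes, and in 11 of these all were lower. The like shares over all probe sets above 50 were not counted. Among all 8917 genes, each by its brightest probe set, 46.5% were lower. LARS, RARS2 and AIMP1 had probe sets in both directions. Ratios of probe sets of the same gene differed by a median of 0.21 on the log2 scale, from 0.0087 in WARS2 to 0.60 in LARS.

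**Figure D4:**
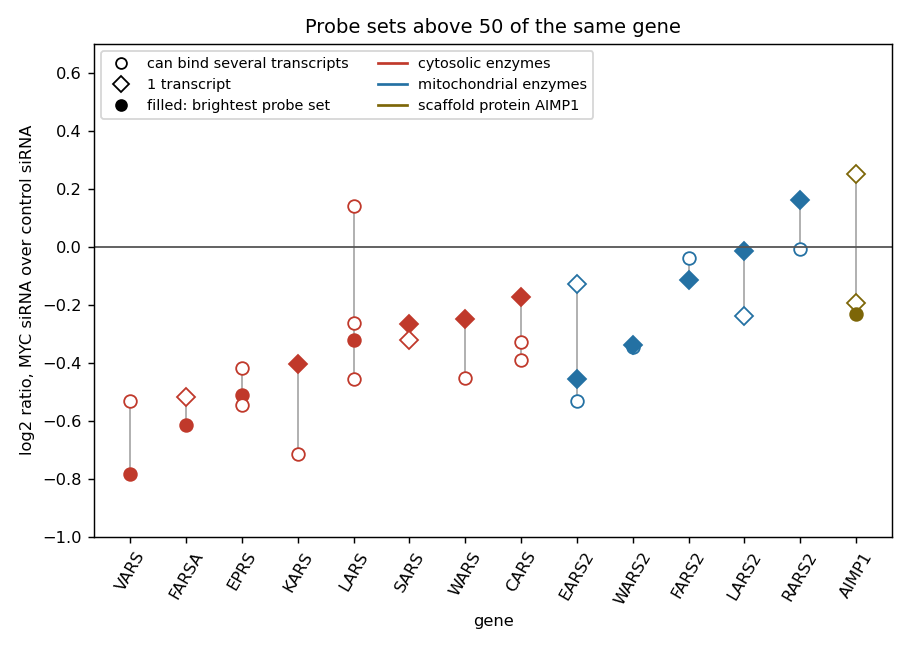
Log2 ratio (MYC siRNA over control) for every probe set above 50 of the 14 genes with more than 1 (circles: can bind several transcripts, diamonds: 1 transcript, filled: the brightest, whose value is used for the gene). All points lie below 0 for 11 genes, and LARS, RARS2 and AIMP1 have points on both sides.

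Membership of the multisynthetase complex gave no order of the cytosolic genes that held under every setting. The 5 measured enzymes of the complex (EPRS, IARS, KARS, LARS, RARS; 5 of 8) had a median log2 ratio of -0.40, with IARS at -0.62 and RARS at 0.04. The 12 enzymes outside it were all lower, with a median of -0.47. This order turned when every probe set of a gene was averaged (-0.49 in the complex, -0.34 outside it) and with the average over probe sets above 50 (-0.49 and -0.47). AIMP1, the scaffold protein that anchors RARS in the complex, went from 1106 to 942 (-0.23), and its dimmest probe set went the other way (144 and 172, 0.25). Synthetases fall into 2 unrelated structural classes with different folds of the catalytic site. In the cytosol 7 class I enzymes had a median of -0.32 and 9 class II enzymes -0.45 (EPRS, which holds both, is in neither), and in mitochondria 9 class I enzymes had -0.31 and 6 class II enzymes -0.09. The ranges of the classes overlapped in both compartments. The cytosolic order turned when every probe set was averaged (class I -0.35, class II -0.32), with those under 50 in both arrays counted as 0. It held with the average over probe sets above 50 (class I -0.35, class II -0.50).

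The cytosolic enzymes known as targets of ATF4 were also set apart by a list from the general literature. All 11 measured of the 12 on it were lower (median log2 ratio -0.32), 3 of them at least 1.5-fold lower (YARS, TARS, IARS). The 6 measured cytosolic enzymes not on it had a median of -0.53 and also 3 at least 1.5-fold lower (VARS, FARSA, HARS), with RARS as the exception at 0.04. Over all 8917 genes 46.5% were lower and 5.72% at least 1.5-fold lower, with a median of 0.03. On a list of 16 genes, ATF4 itself and its known targets in amino acid supply and stress, 10 of the 13 above 50 were lower (9 after quantile normalization or loess), with a median of -0.54. Of those that reached 100 in either array, the lowest were the amino acid transporter SLC7A5 (1736 and 675, -1.36), asparagine synthetase ASNS (980 and 456, -1.10), and the serine and glycine synthesis enzymes PSAT1 (1845 and 894, -1.05) and SHMT2 (1127 and 633, -0.83). Under the same limit, which leaves out the dimmer SESN2 (0.40) and DDIT3 (0.21), the highest were the cystine transporter SLC7A11 (1112 and 1383, 0.32), the transcription factor CEBPB (2783 and 2723, -0.03), PSPH of serine synthesis (490 and 441, -0.15) and SLC3A2, the partner chain of SLC7A5 (729 and 516, -0.50). ATF4 itself, named outside the rule after its value was seen, had 2117 and 1460 (-0.54).

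Promoter sequence was read from RefSeq windows on GRCh38.p14, each with 250 bases before and 50 after an annotated start, which were given for 33 of the 39 genes (not for DARS, LARS, VARS, YARS, AARS2 and VARS2). Searched on both strands were CACGTG, the canonical E-box that MYC with its partner MAX is known to bind and which reads the same on both strands, and TGATGNAA, the core of the C/EBP-ATF response element. CACGTG was in 7.26% of all 35116 windows, and in 13.6% of the 7482 genes above 50 with a window. It was found in 1 of 16 cytosolic genes (IARS) and in 3 of 14 mitochondrial ones (MARS2, EARS2, CARS2), and in AIMP2. The 3 mitochondrial genes with it had log2 ratios of -1.09, -0.46 and -0.31, and the 10 measured ones without it a median of -0.12. Among all genes above 50 the medians were -0.03 with the motif and 0.04 without it.

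The 60 bases before the start of MARS2, the gene with the lowest ratio, are shown with its CACGTG in capitals, at chr2:197705309-197705368 on the plus strand. The motif begins 11 bases before the start.
MARS2: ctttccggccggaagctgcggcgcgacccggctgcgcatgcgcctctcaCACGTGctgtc

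TGATGNAA was in 3.62% of all windows and in 2.62% of the genes above 50 with a window. It was found in 7 of 16 cytosolic genes (AARS, CARS, GARS, IARS, MARS, NARS, TARS) and in 1 of 14 mitochondrial ones (YARS2). All 7 are on the ATF4 list, which was drawn up from knowledge of such genes and is not independent of the motif. The 6 measured cytosolic genes with it had a median log2 ratio of -0.34 and the 8 without it -0.43. IARS (log2 ratio -0.62) was the single synthetase gene with both motifs, while AARS (-0.12), with the second motif alone, was among the least different. The other measured cytosolic genes with the second motif alone lay on either side, TARS at -0.64, GARS at -0.50, NARS at -0.18 and CARS at -0.17. The stretches of IARS and AARS are shown. Both hold the same 8 letters on the opposite strand, TTGCATCA, and they differ in ratio. Capitals mark the motifs. The IARS stretch is chr9:92293698-92293897, the 200 bases before the start on the minus strand, with CACGTG beginning 186 and TTGCATCA 13 bases before the start. The AARS stretch is chr16:70289647-70289706 on the minus strand, with its motif beginning 187 bases before the start.
IARS: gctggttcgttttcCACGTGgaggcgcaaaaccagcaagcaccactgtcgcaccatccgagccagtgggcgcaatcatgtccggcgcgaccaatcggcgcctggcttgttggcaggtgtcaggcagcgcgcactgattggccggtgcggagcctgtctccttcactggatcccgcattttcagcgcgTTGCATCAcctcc
AARS: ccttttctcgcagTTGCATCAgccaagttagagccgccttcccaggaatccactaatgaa

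HARS and HARS2 are read in opposite directions from neighbouring starts on chromosome 5. HARS starts at 140691370 on the minus strand and HARS2 at 140691455 on the plus strand. The 84 bases between them, chr5:140691371-140691454, are shown on the plus strand as the stretch that both genes share, and they hold neither motif.
HARS to HARS2: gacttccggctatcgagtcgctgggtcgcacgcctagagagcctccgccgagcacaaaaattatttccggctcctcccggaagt

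From this shared stretch the cytosolic HARS was 1.53-fold lower with MYC siRNA (672 and 440) and the mitochondrial HARS2 1.10-fold lower (302 and 276), a gap of -0.48 between the log2 ratios. A motif match describes letters in a window and shows neither binding nor a cause, and a window without a match says nothing of the factor.

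Genes that work next to the synthetases were followed through a list of 28, of which 22 were above 50. They handle tRNA export and processing, correct misacylated tRNA, make selenocysteinyl-tRNA or carry charged tRNA to the ribosome. Among all 8917 genes above 50, 46.5% were lower and 5.72% at least 1.5-fold lower, with a median log2 ratio of 0.03. Of the 22 listed genes 16 were lower and 6 higher, with 4 at least 1.5-fold lower and a median of -0.20. Of those that reached 100 in either array, the lowest were DTD2, which removes wrongly attached amino acids (133 and 80.0, -0.73), SSB, the La protein that protects new RNA polymerase III transcripts such as pre-tRNA (1496 and 942, -0.67), XPOT, the tRNA export receptor (1717 and 1119, -0.62), and TUFM, the mitochondrial elongation factor that delivers charged tRNA (1889 and 1289, -0.55). The fourth gene at least 1.5-fold lower was ANKRD16 (96.2 and 58.4, -0.72), which lies under that limit, while TUFM was 1.47-fold lower. A second probe set was lower too for DTD2 (-0.26), SSB (-0.58) and XPOT (-1.05).

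At the other end, with the limit of 100 leaving out GATB (0.44), EEFSEC (0.38) and ELAC1 (0.30), were EIF2AK4, the kinase GCN2 that senses uncharged tRNA (88.2 and 125, log2 ratio 0.50, but -0.38 in its other probe set), and SECISBP2, which directs selenocysteine incorporation (360 and 464, 0.36, with 0.40 in its other probe set). SEPHS2, which makes the selenium donor, had 505 and 523 (0.05), and QRSL1, a subunit of the enzyme that makes mitochondrial glutaminyl-tRNA, 155 and 150.2 (-0.04). The carrier of charged tRNA in the cytosol, EEF1A1, named outside the rule after its value was seen, had 10348 and 9003 (-0.20).

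**Figure D5:**
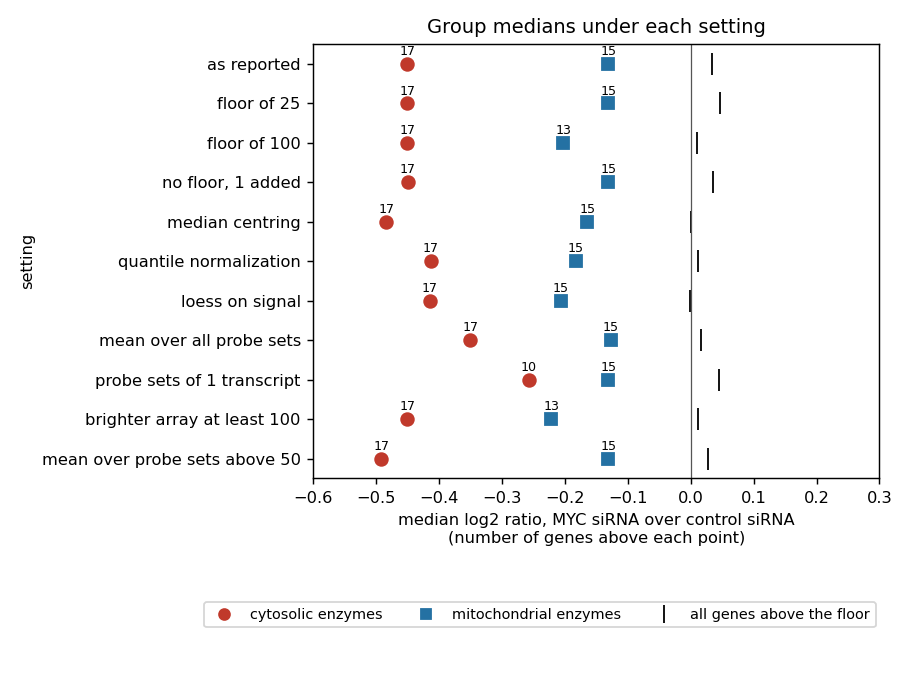
Median log2 ratio (MYC siRNA over control) for the cytosolic (red circles) and mitochondrial (blue squares) enzymes and for all genes (black ticks) as reported and under 10 other ways of processing the same 2 arrays, with the number of enzymes above each point. The cytosolic median lies left of the mitochondrial one in each, and comes closest to it (-0.26 against -0.13) when probe sets that can bind several transcripts are left out.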

How the data were processed

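RNA of 2 HT-29 cultures was measured on Affymetrix U133 Plus 2.0 arrays, 1 per condition. The authors' deposited intensity values come from the MAS5 algorithm (affy 1.40.0, per the labels), are linear, and have a trimmed mean of 100 in each array, as a check with 2% trimmed at either end showed. The platform annotation pairs 41097 of the 54675 probe sets with a single gene and 1801 with several, and 11777 are unnamed here. Symbols were updated through gene identifiers.

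Signals below 50 were raised to 50 before the log2 ratio (MYC siRNA over control) was formed. A gene took the probe set of highest mean signal among those naming it alone. Genes at or under 50 in both arrays got no ratio, which left 8917. No test was run. The number of arrays limits the precision, and the SD between probe sets of a gene is the only error given. Lists were described by counts and medians beside those of all genes. The scripts were tested on simulated data whose signals all lay above the floor, so the handling of dim signals was not covered. Named are MYC, all measured members, and from the lists of partner genes and ATF4 targets the 4 lowest and 4 highest that reached a signal of 100 in either array. Members, lists and alternatives were chosen with earlier results of these data known. Python 3.11.15, numpy 2.4.6, pandas 2.3.3, statsmodels 0.14.6 (loess span 0.3) and matplotlib 3.10.9 were used.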

Additional observations from a re-analysis of the deposited data

How the results depend on the processing

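The medians of the cytosolic, mitochondrial, complex, outside-complex and partner genes, the compartment difference, the counts at least 1.5-fold lower, the pair count and each gene's ratio were recomputed under 9 alternatives (floors of 25 or 100, no floor with 1 added, median centring, quantile normalization, loess on signal, averaging every probe set of a gene, leaving out the kind that binds several transcripts, and requiring 100 in the brighter array). The mean over probe sets above 50 and leaving out GARS and KARS were added after seeing the data. None of the 33 genes changed its sign under any alternative that gave it a value, and neither these medians nor the compartment difference changed sign. The genes with a higher signal came close to no difference. RARS was at 0.0023 with median centring, RARS2 at 0.026 with every probe set averaged and PARS2 at 0.055 with loess. The order of the complex and the other cytosolic enzymes, and of the cytosolic classes, did turn. Motif and signal-class medians were not recomputed. A median counted as moved from 0.1 on the log2 scale, and a count by more than 1.5 times.

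The median of the complex enzymes was -0.29 with quantile normalization and -0.28 with loess, and the difference between the compartments was -0.21 with loess. The cytosolic enzymes at least 1.5-fold lower were 4 with either, and the pairs with the cytosolic gene lower 9 of 15 with quantile normalization. Averaging every probe set, where those under 50 in both arrays count as 0, the cytosolic enzymes at least 1.5-fold lower were 3, the median outside the complex was -0.34 and that of the complex -0.49, which turned their order (complex minus outside -0.16, from 0.07). The cytosolic class I minus class II difference went from 0.13 to -0.03. With the average over probe sets above 50 the complex was at -0.49 against -0.47 outside it, and the class difference was 0.15. Leaving out the probe sets that bind several transcripts, the cytosolic median was -0.26 (10 genes), the median outside the complex -0.26 (8 genes), that of the complex -0.18 (2 genes), the difference between the compartments -0.13, the cytosolic enzymes at least 1.5-fold lower 2, and the pairs with the cytosolic gene lower 5 of 8. The cause of these shifts was not tested. The other 84 values, those of 4 and 9 above included, stayed within these limits. Of single genes, YARS was at -0.46, TARS at -0.32, FARSB at -0.15, CARS2 at -0.06 and AIMP1 at -0.06 when every probe set was averaged. With the average over probe sets above 50, which counts none as 0, YARS was at -0.93, TARS at -0.64 and FARSB at -0.45. CARS2 was then at -0.31 and AIMP1 again at -0.06.

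No paired analysis was possible because each condition has 1 array and the labels carry no replicate numbers. For the same reason no replicate was left out. Most mitochondrial enzymes were dim, with a median signal of 170 in the control siRNA array against a floor of 50, so their ratios carry the larger error between probe sets.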
